A study of Mus musculus with 5 samples.

Results

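Ependymal cells from the walls of the lateral ventricles were compared with ependymal cells from the walls of the third ventricle of adult mice. Cells were assigned by the region that the deposited table gives each cell, which yielded 485 of the 1473 cells in the series, 240 of them from the lateral ventricle and the rest from the third. Both samples came from the FoxJ1CreERT2 R26TdT line, in which an inducible Cre recombinase under the promoter of Foxj1, a regulator of motile cilia, switches on the red reporter tdTomato. Animals were 3-month-old, 10 in number (5 females and 5 males) across all regions taken from this line. Walls were microdissected and sorted by fluorescence into 96-well plates, and every cell was made into its own Smart-seq2 library, a full-length cDNA method without molecular identifiers or strand information. The series title names Sox9 and Nfi factors, neurogenesis and ependymal maturation as its subject, and the series also holds cells from the midbrain aqueduct and spinal cord of this line. No genotype, treatment or age differed between the ventricle samples, so the comparison is one of regions. Each region was 1 sample, the wells of single animals are not marked in the labels, and region, plate and animal cannot be told apart. Differences are therefore given without a test, and neither cells nor blocks of cells were treated as replicates.

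Ependymal cells form the ciliated epithelium between brain tissue and cerebrospinal fluid, and their beating cilia move that fluid. The lateral ventricles lie within the telencephalon, whose wall is patterned during development by factors such as Emx1 and the OTX and ZIC proteins. The third ventricle lies within the diencephalon, between the thalamus and the hypothalamus, and its floor also carries tanycytes, elongated glia that express Rax.

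The samples were of similar depth, with a median of 715589 reads per lateral-ventricle cell and 734669 reads per third-ventricle cell, and 5435.5 and 5341 detected genes. Levels are given in CPM, the summed counts of a sample scaled to a common total. All 10 ependymal markers lay within 2-fold between the ventricles, among them Foxj1 itself (491 CPM in the lateral and 459.6 CPM in the third ventricle) and Tmem212 (3586 against 2984 CPM). The third-ventricle columns carry the name Tanycytes in the deposited table, but Rax had 0 reads in all 485 cells. Of 20 tanycyte markers in the table, 9 passed the filter on low levels given below. Of these, 0 were at least 4-fold higher in the third ventricle and 1, Fgf18, in the lateral ventricle (14.3 against 2.90 CPM). By the call given below, 0.804% and 0.633% of all genes examined were higher in the third and lateral ventricle. With 9 genes, a count of 0 is near that background. Of the 9, 4 were higher in the lateral and 5 in the third ventricle. At least 2-fold higher with blocks apart was 1 of the latter, beside 3.5% of all genes examined. Their median log2 ratio of the lateral over the third ventricle was -0.47. The summed level of the tanycyte markers was 1288 CPM in the lateral ventricle (blocks 1107 to 1587) and 1332 CPM in the third (blocks 1088 to 1550). That sum includes Vim, a filament gene read in 98.8% and 97.6% of cells, with median levels per cell of 822 and 761 CPM. Tgfb2, Nes and Scn7a, also on the list, were read in 39.6%, 28.8% and 52.5% of lateral-ventricle cells. In third-ventricle cells these shares were 56.7%, 38.4% and 61.2%. The cells are called third-ventricle cells here, and whether some of them are tanycytes was not tested. Within each sample, 3 blocks of 96 consecutive cell numbers were compared to show the spread inside it. These blocks were not alike in the sex of their cells: reads of Y-linked genes occurred in 52.5% of cells of the second lateral-ventricle block, against 19.8% and 12.7% in the others. That block also had the fewest detected genes among the lateral-ventricle blocks, with a median of 4423.5. In the third-ventricle blocks the share of cells with Y-linked reads ran from 25.3% to 34.1%, and that with Xist reads was 38.6%, 43.5% and 16.9%. The last of these blocks had a median of 4545 detected genes, against 5170.0 and 6024 in the others.

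Most genes had much the same level on both sides. A gene was examined when its summed counts reached 10 CPM in 1 of the samples with a read in at least 10% of its cells, which 9946 genes did. Of these, 9251 (93.0%) differed by less than 2-fold, and the median log2 ratio of the lateral over the third ventricle was -0.03. A gene was called when it was at least 4-fold higher in 1 ventricle and the 3 blocks of one sample did not overlap with those of the other. By this rule 63 genes (0.633% of those examined) were called higher in the lateral ventricle and 80 (0.804%) higher in the third ventricle, or 143 (1.44%) in all. At 2-fold with blocks apart, which is what 2-fold higher means below, the numbers were 197 (1.98%) and 348 (3.5%), or 545 (5.48%) in all. Blocks were apart at any fold for 683 genes (6.87%) with the lateral ventricle higher and for 991 (9.96%) with the third ventricle higher. Both counts were sensitive to the cells chosen. Within the 79 lateral and 75 third-ventricle cells that had Xist reads and no Y-linked reads they were 123 and 140. Within the 68 and 63 cells with Y-linked and no Xist reads they were 98 and 145. The former kept 39 of the 63 and 51 of the 80 genes, the latter 36 and 40. The second lateral-ventricle block, with Xist reads in 2.5% of its cells, was too small and was left out of the block check of the former. The part of the smaller cell numbers in these counts was not tested.

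**Figure D1:**
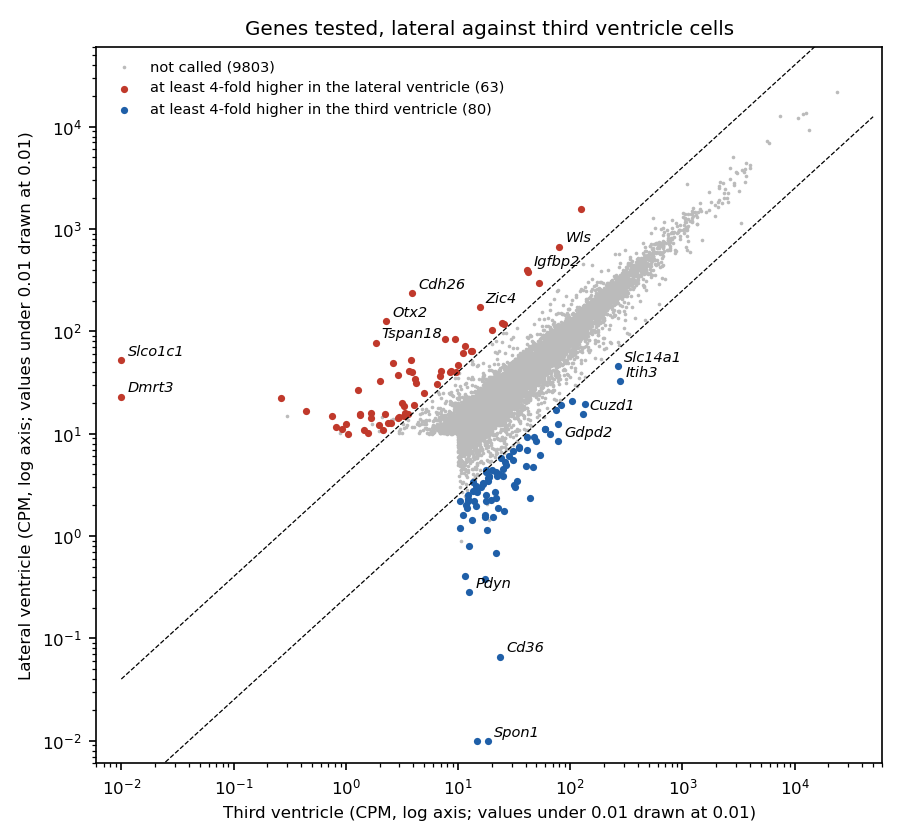
Each point is 1 of the 9946 genes examined, with its summed level in third-ventricle cells on the horizontal and in lateral-ventricle cells on the vertical axis, both in CPM on log axes with dashed lines at 4-fold. Called genes lie outside the lines, 63 in red above and 80 in blue below, and the grey cloud of the other genes follows the diagonal.

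Leading genes were ranked by fold among called genes at 50 CPM or more in the higher ventricle. Some called genes below that level, given further on, had larger folds on either side. The leading genes of the lateral ventricle by this ranking were the carrier gene Slco1c1, the cadherin gene Cdh26 and the transcription factor gene Otx2. Slco1c1 (chromosome 6, 141524368 to 141570177, GRCm38), the carrier that moves thyroxine and steroid conjugates across membranes, stood at 52.5 CPM in the lateral ventricle (95% exact Poisson interval 51.4 to 53.5) and had 0 reads in the third. All intervals here cover counting error only. Against a floor of 3 reads over the whole third-ventricle sample, it was at least 3563-fold higher. Its lateral-ventricle blocks stood at 76.0, 32.9 and 44.2 CPM, so all 3 held it. Reads came from 61 of 240 lateral-ventricle cells (25.4%, 95% exact interval 20.03 to 31.4) and from 0 third-ventricle cells, which the interval limits to 1.49%. Cdh26 (chromosome 2, 178430531 to 178487366), a cadherin of epithelial cells, stood at 238 CPM in the lateral and 3.93 CPM in the third ventricle, a ratio of 60.5 (95% counting interval 56.4 to 65.0). Its blocks were at 269.7, 217 and 220.3 CPM in the lateral and 13.7, 0.0445 and 0 CPM in the third ventricle. Almost all of the third-ventricle reads of Cdh26 thus came from the first block, and without that block the log2 ratio was 13.50 in place of 5.92. Otx2 (chromosome 14, 48657677 to 48673819), a homeobox factor needed to form the front of the brain, reached 125 CPM in lateral-ventricle cells and 2.28 CPM in third-ventricle cells. It was read in 66.7% of lateral-ventricle cells and in 7 third-ventricle cells (2.86%, 95% exact interval 1.16 to 5.80). Without the first third-ventricle block its log2 ratio was 7.87 in place of 5.77.

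Among the 7 third-ventricle cells with Otx2 reads, 5 held at least 10 reads and 2 held 1 read. All 7 had between 945 and 3080 reads of Tmem212, an ependymal marker, and 5 also had reads of the third-ventricle genes Cuzd1 or Gdpd2. The 2 cells with 1 read were among these 5. Otx2 is also a marker of choroid plexus, the fluid-secreting epithelium of the ventricles. The summed level of the 6 choroid plexus markers in the table, Otx2 included, was 588 CPM in the lateral (blocks 551 to 647) and 242 CPM in the third ventricle (blocks 198 to 299). Folr1, a folate receptor, stood at 385 against 189 CPM, Ttr, the transthyretin gene and the most abundant choroid plexus transcript, at 9.61 against 5.15 CPM, and Kcnj13 had 0 reads in the lateral ventricle. The part of these genes in the Otx2 difference was not tested.

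Other lateral-ventricle genes were lower but present in the third ventricle. Zic4 (chromosome 9, 91362413 to 91389348), a zinc finger protein active in dorsal neural tissue, reached 173 CPM beside 15.5 CPM, a ratio of 11.1 (10.7 to 11.5). Wls, which escorts Wnt ligands to the cell surface, had the highest level among the 15 leading genes, at 674 CPM in the lateral and 79.7 CPM in the third ventricle. Its blocks stood at 834, 522 and 640.5 CPM in the lateral and 83.2, 79.2 and 77.6 CPM in the third ventricle, a gap far wider than the spread within either. Igfbp2, a secreted binding protein of insulin-like growth factors, stood at 393 against 41.2 CPM. Musk, the receptor kinase best known from the neuromuscular junction, stood at 379 against 41.7 CPM and was read in 92.9% and 31.8% of cells. Paqr5, a membrane progestin receptor, stood at 299.8 against 52.5 CPM, and Creb3l1, a transcription factor anchored in the endoplasmic reticulum, at 104 against 20.04 CPM. Lamb1, the laminin beta 1 chain of basement membranes, stood at 71.7 against 11.6 CPM. Tspan18, a tetraspanin, stood at 77.7 against 1.84 CPM, and 66.2% of its third-ventricle reads came from 1 cell. Its third-ventricle blocks stood at 0.155, 0 and 4.68 CPM, and without the last of them the log2 ratio of Tspan18 was 10.08 in place of 5.40. Larp1b, an RNA-binding protein, stood at 52.7 against 3.83 CPM and the ubiquitin ligase gene Rnf128 at 83.6 against 9.41 CPM. Hp, which encodes the haemoglobin-binding protein haptoglobin, stood at 64.9 against 12.96 CPM, and its log2 ratio of 2.32 was 1.50 within cells with Y-linked reads. Hspb1, a small heat shock protein, stood at 84.9 against 7.60 CPM with lateral-ventricle blocks at 45.8, 167 and 44.7 CPM. The second block thus stood well above the other lateral-ventricle blocks, and without it the log2 ratio of Hspb1 was 2.58 in place of 3.48. Hspb1 has a pseudogene, Hsp25-ps1, that was also called (15.4 against 1.34 CPM), and reads of the pair cannot be told apart with certainty.

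The 13 leading genes of the third ventricle, all at 50 CPM or more there, were each also read in some lateral-ventricle cells. Called genes below that level had larger ratios, among them Spon1, Pdyn and Ndnf, the last with 0 reads in the lateral ventricle. Gdpd2 (chromosome X, 100729873 to 100738895), a membrane phosphodiesterase that cleaves glycerophospholipid products, stood at 8.50 CPM in the lateral and 77.3 CPM in the third ventricle, a ratio of 9.10 (8.63 to 9.59). Cuzd1 (chromosome 7, 131308554 to 131322292), a protein with CUB and zona pellucida-like domains, stood at 15.6 against 131 CPM, with third-ventricle blocks at 119, 109 and 159 CPM and lateral-ventricle blocks at 10.8, 16.8 and 20.3 CPM. The lowest third-ventricle block of Cuzd1 was thus several times the highest lateral-ventricle block. Itih3 (chromosome 14, 30908572 to 30923760), a heavy chain that binds hyaluronan in the extracellular matrix, had the highest third-ventricle level of the 13 leading genes, at 275 CPM against 32.9 CPM. It was read in 76.7% of third-ventricle cells (70.9 to 81.9) and in 60 of 240 lateral-ventricle cells (19.7 to 31.0%).

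Solute carriers contributed 3 of these 13 leading genes. Slc14a1, a urea transporter, stood at 45.6 CPM in the lateral and 266 CPM in the third ventricle and was read in 37.9% and 87.8% of cells. Its log2 ratio of -2.55 was -1.73 within cells with Y-linked reads. Slc6a6, the taurine transporter, stood at 9.88 against 66.0 CPM. Slc4a4, a sodium bicarbonate cotransporter of glia, stood at 12.4 against 77.7 CPM. These 3 were the called third-ventricle members among 160 solute carriers examined, against 1 called member, Slco1c1, in the other direction, beside 0.804% and 0.633% of all genes examined, and the count on the lateral side is near that background. The median log2 ratio of all 160 was -0.18, beside -0.03 over all genes, with 57 above and 103 below 0. Slc2a1, the glucose transporter, was the most abundant carrier and stood at 2847 CPM in the lateral and 3612 CPM in the third ventricle.

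Adhesion and membrane proteins were among the remaining leading genes of the third ventricle. Lsamp, an adhesion protein of the immunoglobulin superfamily, stood at 6.12 against 54.2 CPM, a ratio of 8.85 that was next to that of Gdpd2, and Lhfp, a tetraspan membrane protein, at 19.4 against 134 CPM. Plxdc1, a transmembrane protein with a plexin-like domain, stood at 11.2 against 59.0 CPM. Nbl1, a secreted antagonist of bone morphogenetic proteins, stood at 17.0 against 75.1 CPM, with lateral-ventricle blocks at 7.05, 36.4 and 8.20 CPM. Its second lateral-ventricle block was high, and its log2 ratio of -2.15 was -0.97 within cells with Y-linked reads. Mal, a protein of membrane rafts and myelin, stood at 11.1 against 59.8 CPM, and its log2 ratio of -2.43 was -0.49 within cells with Xist reads. Bex2, an X-linked gene of the BEX family, stood at 20.8 against 103 CPM, and its ratio of 4.97 was 3.48 without cells that had a read of a neuron marker.

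**Figure D2:**
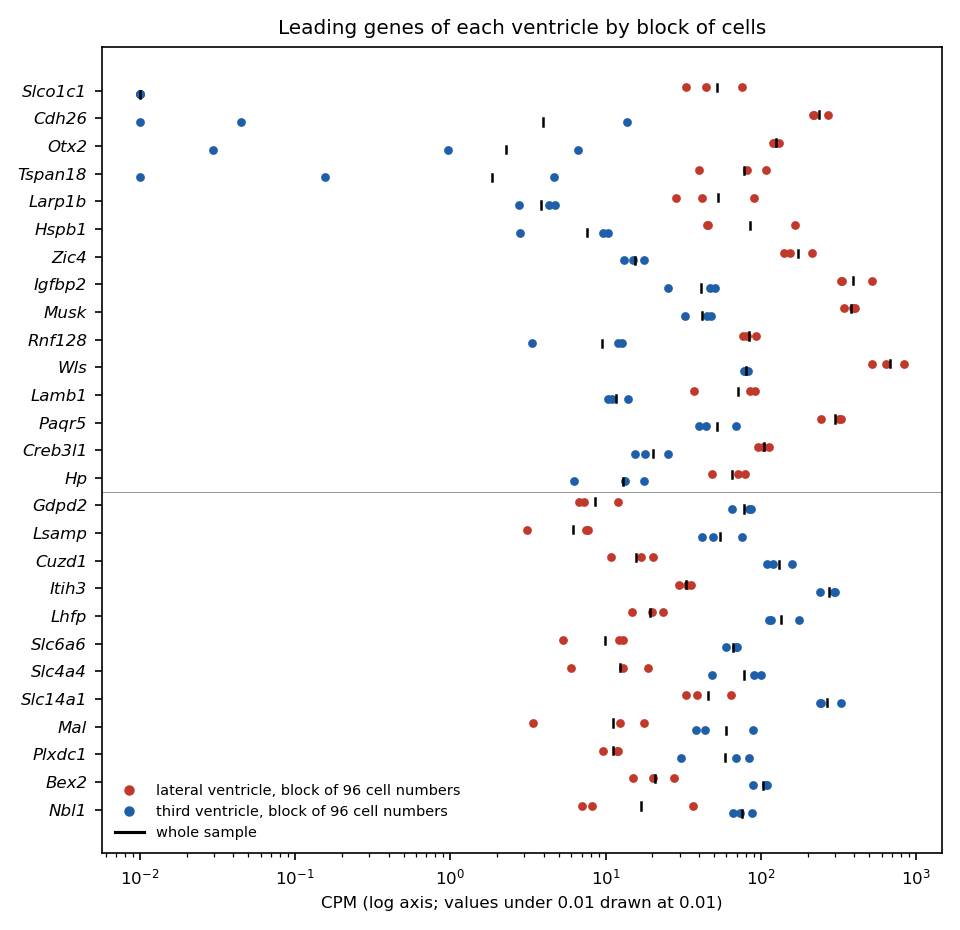
Levels of the 15 leading lateral-ventricle genes (top) and 12 of the 13 leading third-ventricle genes (bottom) in CPM on a log axis, with 1 point for each block of 96 cell numbers and a black tick for the whole sample. Red and blue points do not overlap for any of the genes, as the call requires, and Cdh26, Otx2 and Tspan18 show 1 third-ventricle block far above the other third-ventricle blocks.

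Telencephalic patterning factors divided into a group called in the lateral ventricle and a group shared by both. Of 20 in the table, 8 were examined and 4 were called higher in the lateral ventricle and 0 in the third. This stands beside 0.633% and 0.804% of all genes examined. The list was chosen with earlier results of these data known, so these shares describe it and test nothing. Dmrt3 (chromosome 19, 25610301 to 25623921), a factor of the medial cortex, stood at 23.04 CPM in the lateral ventricle, with blocks at 22.1, 31.5 and 14.98 CPM, and had 1 read in the third. The ratio was 4696, with a 95% counting interval of 842 to 185514. Emx1 (chromosome 6, 85187438 to 85204462), a homeobox factor of the dorsal telencephalon, stood at 31.2 against 4.21 CPM. Meis2, a homeobox factor of the lateral ganglionic eminence and other regions, stood at 41.1 against 8.69 CPM. Dmrt3 was read in 17.1%, Emx1 in 25.8% and Meis2 in 37.1% of lateral-ventricle cells, so each was read in a minority of them. The nuclear receptor Nr2f2, by contrast, was 2-fold higher in the third ventricle at 68.3 against 31.7 CPM and was not called. Its relative Nr2f1 stood at 25.9 against 47.3 CPM and Pax6, a factor of neural progenitors, at 28.4 against 37.0 CPM. Emx2 and Lhx2, cortical factors that were below the filter and were chosen after their values were seen, stood at 7.41 and 8.67 CPM in the lateral ventricle. Emx2 had 0 reads on the other side, where Lhx2 stood at 0.167 CPM.

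Dorsal factors had called members in the lateral ventricle only, with 1 member just short of the call in the third. Of 9 dorsal and roof plate factors examined, 2 were called on the lateral side and 0 on the other, beside 0.633% and 0.804% of all genes examined. Their median log2 ratio was 0.98. The called members were Zic4 and its neighbour Zic1 (18.9 against 4.07 CPM), which overlap on chromosome 9, so reads in the overlap of this unstranded library cannot be assigned to one of them. Zic5, another member of the family, stood at 18.4 against 9.31 CPM. Bmp7, a bone morphogenetic protein, was higher in the third ventricle (2.71 against 10.8 CPM) with blocks apart. Its log2 ratio of -1.99991 was just short of the 4-fold call. Msx1, a homeobox factor of the roof plate, stood at 238 and 218 CPM, with overlapping blocks. Otx1, the relative of Otx2, was called at 32.9 against 2.02 CPM. Six3, a factor of the anterior neural plate, stood at 34.0 CPM in the lateral and 42.4 CPM in the third ventricle, with blocks at 39.8, 24.4 and 37.1 against 39.5, 33.4 and 52.3 CPM. It was the 1 member of 7 hypothalamic and anterior neural plate factors in the table that passed the filter. Nkx2-1, which specifies ventral forebrain and hypothalamus, was below the filter at 8.83 against 6.47 CPM. So were Six6, a relative of Six3 that was read in 0 lateral-ventricle and 11 third-ventricle cells, and Fezf1, a zinc finger factor of the forebrain that was read in 22 and 8 cells. All 22 members of the Hox clusters in the table, whose products pattern the hindbrain and spinal cord, were below the filter.

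Positional genes on the third-ventricle side were few. Spon1 (chromosome 7, 113765998 to 114043370), an extracellular protein of the floor plate, had 1 read in the lateral ventricle and stood at 18.6 CPM in the third, a ratio of 3357 with a 95% counting interval of 602 to 132629. Its third-ventricle blocks stood at 7.15, 49.9 and 0.0510 CPM, so the level rested mostly on the second block, and 36.3% of the reads came from 1 cell. Meis3, a homeobox factor of caudal neural tissue, stood at 9.67 against 32.8 CPM with overlapping blocks and was not called.

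**Figure D3:**
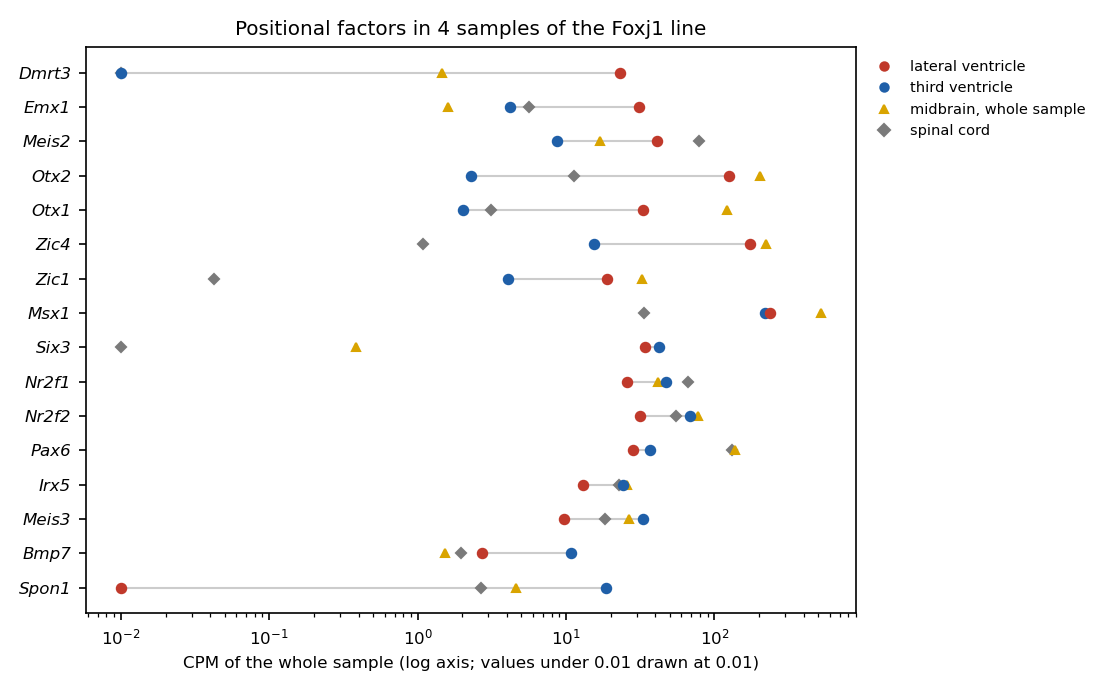
Summed levels of 16 positional genes in CPM on a log axis for the lateral ventricle, the third ventricle, whole midbrain and spinal cord cells, with a line joining the ventricle samples. Dmrt3 and Emx1 are highest in the lateral ventricle, Otx2, Otx1 and Zic4 are high in the lateral ventricle and the midbrain, and Six3 is at similar levels in both ventricles and low elsewhere.

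The promoters of called genes were read because Otx2 was itself among the leading lateral-ventricle genes. The windows run from 250 bases before to 50 bases after the annotated start (RefSeq, GRCm38.p6), and capitals mark the OTX-type motif TAATCC on either strand. Shown are Cdh26 and Slco1c1, the lateral-ventricle genes with Otx2 at the head of the ranking, and Cuzd1 as a third-ventricle gene. Their windows are chr2:178430265-178430564 on the plus strand, chr6:141524104-141524403 on the plus strand and chr7:131322243-131322542 on the minus strand, each written 5′ to 3′ in the direction of its gene.
Cdh26: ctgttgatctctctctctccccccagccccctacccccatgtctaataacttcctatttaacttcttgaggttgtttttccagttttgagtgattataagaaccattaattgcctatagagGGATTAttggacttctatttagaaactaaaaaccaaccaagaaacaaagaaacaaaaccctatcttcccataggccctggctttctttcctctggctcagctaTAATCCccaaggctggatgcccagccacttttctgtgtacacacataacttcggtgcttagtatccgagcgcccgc
Slco1c1: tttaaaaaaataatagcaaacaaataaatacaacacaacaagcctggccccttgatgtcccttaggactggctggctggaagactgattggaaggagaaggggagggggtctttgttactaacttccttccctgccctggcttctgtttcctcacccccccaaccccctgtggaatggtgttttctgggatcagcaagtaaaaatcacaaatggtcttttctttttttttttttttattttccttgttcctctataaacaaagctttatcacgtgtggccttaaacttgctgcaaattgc
Cuzd1: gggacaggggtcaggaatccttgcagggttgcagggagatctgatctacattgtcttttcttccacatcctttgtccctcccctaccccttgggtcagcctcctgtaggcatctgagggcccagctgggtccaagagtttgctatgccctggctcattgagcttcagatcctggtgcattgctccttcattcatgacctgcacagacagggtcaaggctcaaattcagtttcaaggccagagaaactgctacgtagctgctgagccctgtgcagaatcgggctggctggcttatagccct
The Cdh26 window held 2 matches, and the other windows held 0. Over all called genes, a match was found in 4 of 43 lateral-ventricle genes with a promoter in the table (9.30%) and in 3 of 54 third-ventricle genes (5.56%), beside 7.07% of 7680 examined genes. The RFX half-site GTTGCC, searched in the same way because RFX factors act with Foxj1 on cilium genes, was found in 16.3% and 16.7% of called genes beside 16.8% of all. The forkhead motif GTAAACA was found in 4.65% and 1.85% beside 3.31%, and the palindromic NFI motif in 0 called genes beside 0.0260%. The shares differed from those of all genes by few genes, and a match describes letters in the window only.

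The called genes differed more in how many cells had a read than in the level of the cells that did. Of the 63 lateral-ventricle genes, 53 were read in at least 5 third-ventricle cells. For them the median ratio of the shares of cells with a read was 3.65, and the median ratio of the mean CPM in those cells was 1.55. The ratio of shares was the larger in 43 of the 53. Of the 80 third-ventricle genes, 71 could be compared, with medians of 3.72 and 1.63, and the ratio of shares was the larger in 63. After each cell was thinned to 100000 reads, which left out 0 cells, the median ratios of shares were 3.98 and 3.88. Otx2 had the largest ratio of shares among the genes compared, 23.3, with a ratio of levels of 1.68, and Cdh26 came next, with 19.7 and 2.03. Wls went the other way, since it was read in 92.9% and 49.8% of cells and its median level among cells with a read was 522 against 129.7 CPM.

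**Figure D4:**
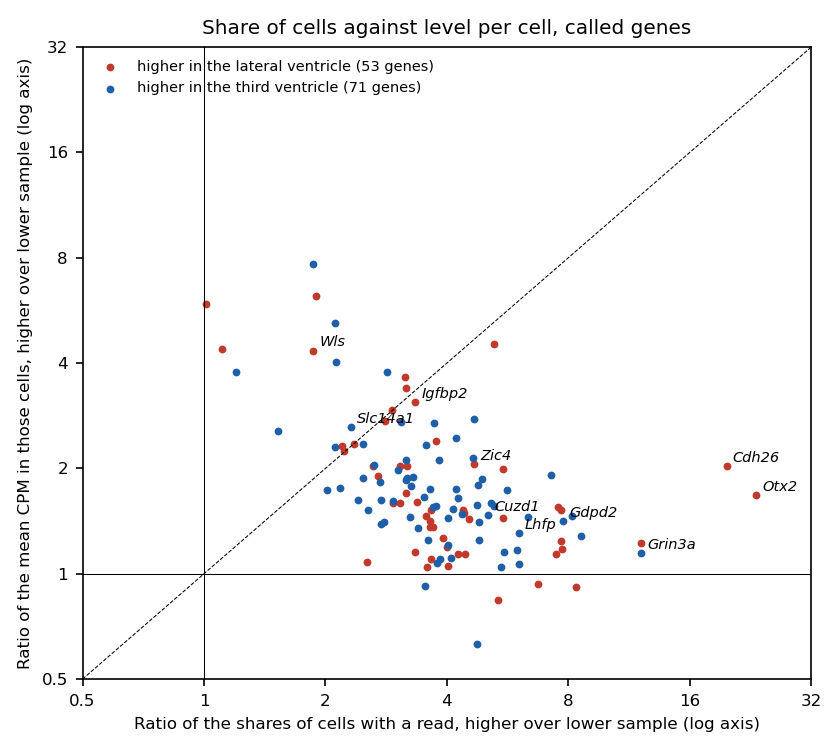
For each called gene with a read in at least 5 cells of the lower sample, the ratio of the shares of cells with a read (horizontal) against the ratio of the mean CPM in those cells (vertical), both higher over lower sample on log axes. Most points lie below the dashed line of equal ratios, 43 of 53 red lateral-ventricle genes and 63 of 71 blue third-ventricle genes, and Wls lies above it.

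Taken cell by cell, the leading genes separated nearly all cells of the samples they were chosen from. A lateral-ventricle cell held reads of a median of 10 of the 15 lateral-ventricle genes (range 3 to 14) and of 2 of the 13 third-ventricle genes (0 to 7). A third-ventricle cell held a median of 2 (0 to 8) and 7 (1 to 12). The lateral-ventricle genes were the larger share in 229 of 240 lateral-ventricle cells, and the third-ventricle genes in all but 10 third-ventricle cells. Since the genes were picked from these cells, this describes them and tests nothing. Some of these genes were read together. Cdh26 was read in 86.8% of the lateral-ventricle cells with Zic4 and in 34.8% of those without, and 55 of the 61 cells with Slco1c1 also had Zic4. Dmrt3 was read in 41 cells, of which 39 had Cdh26. It was read in 21.0% of the 62 cells with Emx1 and in 15.7% of those without.

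**Figure D5:**
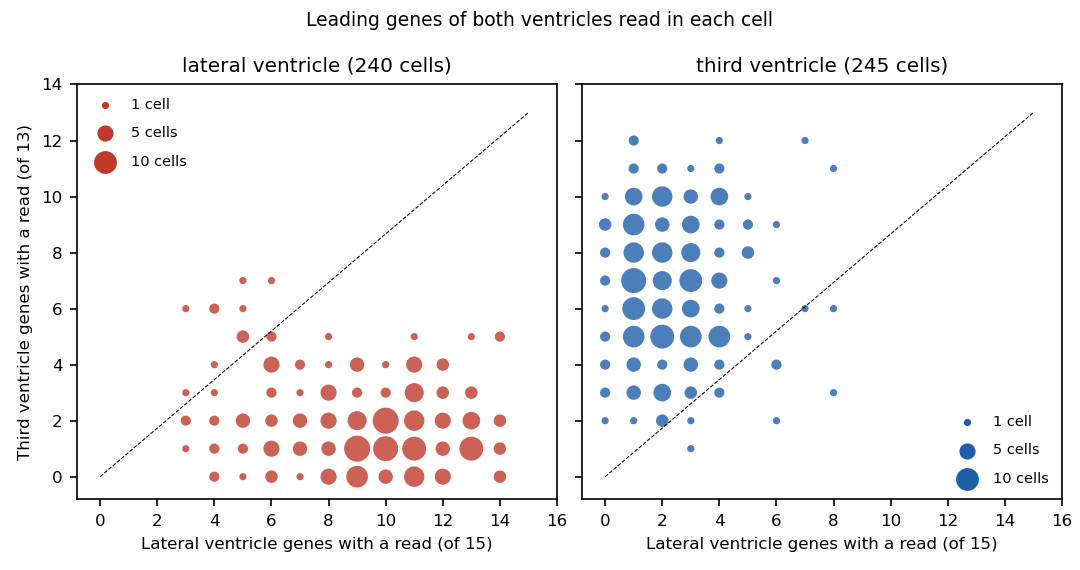
Number of the 15 leading lateral-ventricle genes (horizontal) and of the 13 leading third-ventricle genes (vertical) with a read in each cell, for lateral-ventricle cells (left) and third-ventricle cells (right), with point area showing the number of cells. Lateral-ventricle cells lie low and to the right around 10 and 2 genes, third-ventricle cells high and to the left around 2 and 7, and 11 and 10 cells lie across the dashed line of equal shares.

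Most Wnt, BMP and TGF-beta genes examined lay below 0, the side of the third ventricle, and few were called. Of 25 Wnt pathway genes examined, 1 was called in the lateral and 2 in the third ventricle, beside 0.633% and 0.804% of all genes examined. The median log2 ratio was -0.25 with 19 members below 0, beside -0.03 over all genes. Beside Wls, the called members were the ligand Wnt7b (5.25 against 26.5 CPM) and the receptor Fzd1 (1.88 against 22.7 CPM), both higher in the third ventricle. The other abundant members, such as Ctnnb1, the transcriptional effector of the pathway (134 against 176 CPM), and the receptor Fzd3 (116 against 122 CPM), were within 2-fold. Of 30 genes of the BMP and TGF-beta pathways, 0 were called in the lateral and 3 in the third ventricle, beside the same 0.633% and 0.804%. Below 0 lay 22 of the 30, with a median log2 ratio of -0.32. The called members were Nbl1, the co-receptor Eng (7.35 against 35.0 CPM) and the type I receptor Acvrl1 (6.03 against 28.7 CPM). Eng and Acvrl1 are also known from endothelial cells. Kdr was the 1 of 7 endothelial markers in the table and stood at 15.9 against 4.76 CPM, and the part of such cells was not tested. The summed level of 4 mural and fibroblast markers was 13.6 CPM in the lateral (blocks 8.75 to 21.7) and 49.5 CPM in the third ventricle (blocks 29.7 to 77.9), with the collagen gene Col1a2 the 1 that passed the filter, and its part was not tested. Tgfbr2, the type II TGF-beta receptor, went the other way at 262 CPM in the lateral and 126 CPM in the third ventricle, with overlapping blocks.

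Few FGF and Notch genes were called, and both lists are short. Calls in these lists stand beside 0.633% of all genes examined in the lateral and 0.804% in the third ventricle. Genes 2-fold higher stand beside 1.98% and 3.5%. Among 9 FGF pathway genes, Fgf18 was called in the lateral ventricle, and Fgf7, a ligand of epithelial receptors, was 2-fold higher in the third (35.8 against 76.4 CPM). The receptor Fgfr1 stood at 151 and 169 CPM. Among 14 Notch pathway genes 0 were called, and Dner, a transmembrane ligand, was 2-fold higher in the third ventricle (52.7 against 135 CPM). Hey1, a Notch target, stood at 142 against 166 CPM. Among 12 retinoid and thyroid hormone genes, Slco1c1 was the 1 called member, and Thra, a thyroid hormone receptor, stood at 70.5 against 87.3 CPM.

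Most genes shared with astrocytes had a higher level in the third ventricle, though their sum did not. Of 28 genes examined on a list of glial genes, among them genes of water, glutamate and gap junction handling, 21 were below 0. Their median log2 ratio was -0.41. The third ventricle was at least 2-fold higher with blocks apart for 6 of them, and the lateral ventricle for 0. Over all genes examined these shares were 3.5% and 1.98%. Their summed level was 36184 CPM in the lateral and 33673 CPM in the third ventricle. Sparc, a matricellular glycoprotein, stood at 1144 CPM in the lateral and 3292 CPM in the third ventricle, with blocks at 1022, 1016 and 1437 against 3188, 3365 and 3306 CPM. The lowest third-ventricle block was more than 2-fold the highest lateral-ventricle block. Slc1a3, the glial glutamate transporter GLAST, stood at 287.6 against 621 CPM. Slc6a11, a GABA transporter, stood at 8.47 against 25.7 CPM, and Aldoc, the aldolase of astrocytes, at 136 against 379 CPM. The water channel Aqp4 (445 against 584 CPM) and the gap junction protein Gja1 (851 against 1087 CPM) were within 2-fold. Clu, the chaperone clusterin, stood at 12764 against 7344 CPM, within 2-fold but with blocks apart and the lateral ventricle higher. The summed level of 8 astrocyte markers ran from 906 to 1957 CPM over the lateral-ventricle blocks and from 1525 to 2518 CPM over those of the third ventricle, with none at 0, and its part in these values was not tested.

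Matrix and adhesion families had called members on both sides. The numbers stand beside 0.633% of all genes examined called in the lateral and 0.804% in the third ventricle. Of 37 collagens, laminins, integrins and syndecans examined, Lamb1 and Lamb3 (46.4 against 9.92 CPM) were called in the lateral ventricle. The syndecan Sdc3 (3.47 against 33.8 CPM) was called in the third. The laminin beta 2 chain gene Lamb2 was 2-fold higher in the third ventricle (68.8 against 206 CPM), opposite to Lamb1 and Lamb3. Lamb3 overlaps G0s2, which was also called in the lateral ventricle, and their reads cannot be assigned with certainty. Of 40 cadherins and junction genes examined, Cdh26 and Cdh19 (15.97 against 1.67 CPM) were called in the lateral and Cdh11 (2.19 against 17.7 CPM) in the third ventricle. At 2-fold the numbers were 4 and 10 of the 40, beside 1.98% and 3.5% of all genes examined. Ocln, the tight junction protein occludin, stood at 266 and 231 CPM. Of 24 axon guidance genes examined, 20 were below 0, and 2 were called in the third ventricle, Ntng2 (2.31 against 12.2 CPM) and Efna4 (2.19 against 10.5 CPM), against 0 in the lateral.

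Channels, receptors and secreted peptides gave a few genes each. In the channel list and in the receptor list, 1 gene was called in each direction. Over all genes examined, 0.633% were called in the lateral and 0.804% in the third ventricle. Scn9a, a voltage-gated sodium channel, stood at 0.680 against 21.8 CPM and was the 1 member called in the third ventricle among 47 potassium, sodium, calcium, chloride and TRP channel genes examined. Channels opened by transmitters other than ATP were not on that list, and Grin3a, Grik3, Gabra5 and Chrnb1, of that kind and seen afterwards, were also called in the third ventricle. Kcnmb2, a beta subunit of the BK potassium channel, was the 1 called in the lateral ventricle (15.6 against 1.33 CPM), and its relative Kcnmb1 stood at 399 and 389 CPM. Of 45 G protein-coupled receptors, Galr2, a galanin receptor, was called in the lateral ventricle (18.8 against 3.33 CPM) and Adcyap1r1, the PACAP receptor, in the third (3.33 against 13.5 CPM). Galr2 had third-ventricle blocks at 0, 0.0297 and 8.62 CPM, and its log2 ratio of 2.50 was 0.80 within cells with Y-linked reads. Ednrb, the endothelin B receptor, was 2-fold higher in the third ventricle (71.5 against 181 CPM). Of 23 secreted peptides and hormone-binding proteins, 4 were called in the third ventricle and 1, Igfbp2, in the lateral, beside 0.804% and 0.633% of all genes examined. The list was chosen with earlier results of these data known, so these shares describe it and test nothing. It also holds Gdpd2, which is a membrane protein. Beside Gdpd2 and Cuzd1, the third-ventricle members were Igfbp4 (3.83 against 22.1 CPM) and Pdyn, the precursor of dynorphin peptides (0.282 against 12.53 CPM). Npy, the neuropeptide Y gene, was 2-fold higher in the third ventricle (65.9 against 149 CPM) and was read in 55.9% of its cells against 19.2%. Agt, which encodes angiotensinogen, was 2-fold higher in the lateral ventricle (446 against 158 CPM).

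The summed level of neuron markers was higher in the third-ventricle sample. Of 9 neuron markers, 6 were in the table, 0 passed the filter, and their summed level was 5.57 CPM in the lateral (blocks 3.31 to 7.74) and 53.2 CPM in the third ventricle (blocks 12.1 to 90.2). Single cells carried much of the third-ventricle sum, since 1 cell held 76.7% of its Tubb3, 63.9% of its Snap25 and 61.6% of its Gad1 reads. Rbfox3 had 0 reads in the lateral ventricle. Tubb3 was read in 14 lateral-ventricle and 10 third-ventricle cells, and Syt1 in 13 and 4. A read of any of them occurred in 34 lateral and 49 third-ventricle cells. Without those cells the called genes numbered 70 and 87. Called third-ventricle genes better known from neurons, chosen after their values were seen, differed in how they responded. The ratio of the third over the lateral ventricle was 32.08 for Scn9a with all cells and 31.998 without them. It was 14.7 and 18.0 for the NMDA receptor subunit Grin3a, and 13.2 and 19.3 for the GABA receptor subunit Gabra5. For Ndrg4 it was 10.9 with all cells and 4.19 without them, and for Bex2, as given above, it was below 4-fold without them.

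Motile cilium genes and SOX and NFI factors had similar levels in both ventricles, as most genes examined did. Of 91 motile cilium genes examined, 0 were called in either direction, beside 1.44% of all genes examined. That count is near the background. The median log2 ratio was 0.08, and 65 of the 91 lay above 0. The tektin gene Tekt2 was the 1 member that was 2-fold apart. Ccdc153, the most abundant, stood at 3823 and 3636 CPM. Among 13 SOX and NFI factors examined, 0 were called and all lay within 2-fold. Over all genes examined, 1.44% were called and 93.0% lay within 2-fold. Sox9 stood at 1480.3 and 1296 CPM and was read in all 485 cells, and Nfia stood at 353 CPM in the lateral and 254 CPM in the third ventricle, with blocks at 477, 301 and 255 against 220.0, 197 and 327 CPM. The blocks of Nfia overlapped.

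Housekeeping groups held 0 called genes, beside 1.44% of all genes examined. For lists of this length a count of 0 is near that background. Most of the mitochondrial genes lay above 0. Nuclear genes of the respiratory chain lay above 0 in 70 of 82 cases, with a median log2 ratio of 0.18, and 0 were called. Of 23 mitochondrially encoded genes 21 lay above 0, and the median was 0.62. Of them, 8 were 2-fold higher in the lateral ventricle, beside 1.98% of all genes examined. The summed level of this list differed little, at 54429 CPM in the lateral and 50751 CPM in the third ventricle. Its blocks overlapped (50913 to 56676 against 47188 to 54587 CPM). Mitochondrial reads were 5.44% and 5.08% of all reads. Cytosolic ribosomal protein genes had a median of 0.02 over 51 genes. Immediate early and stress genes, which respond within minutes to stimulation and to dissociation, lay below 0 in 18 of 23 cases. Of the 23, 1 was called, Hspb1, with the lateral ventricle higher. Fos stood at 788 CPM in the lateral and 1498 CPM in the third ventricle with overlapping blocks. The summed level of the immediate early and stress genes was 2738 CPM in the lateral and 4356 CPM in the third ventricle. Its part in the other differences was not tested. Acta2, the smooth muscle actin, stood at 728 and 441 CPM, and 139 lateral (57.9%) and 111 third-ventricle cells (45.3%) held at least 100 CPM of it. Without the lateral-ventricle cells that did, the third-ventricle count was 214 in place of 80, and without such cells in both samples it was 185. Of 18 antigen presentation and interferon genes examined, 1 was called in the lateral ventricle, beside 0.633% of all genes examined. It was Ifitm1, an interferon-induced membrane protein (30.3 against 6.56 CPM), and its relative Ifitm3 stood at 618 against 308 CPM. Of 20 contractile genes 0 were called, beside 1.44% of all genes examined. Csrp2, a LIM protein of muscle, was 2-fold higher in the lateral ventricle (570.4 against 269 CPM).

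Levels in the whole midbrain and spinal cord samples placed the leading genes on a wider map. Of the 15 lateral-ventricle genes, 8 were within 2-fold of the lateral-ventricle level or above it in the midbrain and 1 in the spinal cord. Otx2 stood at 203 CPM, Cdh26 at 229 CPM and Wls at 1542 CPM in the midbrain, beside 125, 238 and 674 CPM in the lateral ventricle. For these 3 genes the third ventricle was the lowest of the brain regions. Larp1b, by contrast, stood at 7.43 CPM in the midbrain and Paqr5 at 114 CPM. Of the 13 third-ventricle genes, 7 were within 2-fold of the third-ventricle level or above it in the midbrain and 5 in the spinal cord. Slc14a1 was higher in the spinal cord (1058 CPM) than in either ventricle, and Cuzd1 was low there (1.07 CPM). The midbrain sample also held cells with high Sspo, the gene of a protein of the subcommissural organ, so its sums are not those of ependymal cells alone.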

How the data were processed

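Single-cell Smart-seq2 libraries of lateral-ventricle and third-ventricle cells were analysed from the table of raw counts per gene and cell that the authors deposited. A second table that the authors deposited holds log2 values, which equal log2(count / size factor + 1) within 0.01 for 100% of values. It served as an alternative. STAR 2.3.1o, Seurat 3 and mm10 are named in the submitters' processing notes. The counting tool, the annotation and the method behind the size factors are not given in the sources used here. Per the labels, the library method carries no molecular identifiers, so PCR duplicates were counted.

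The table names the samples Forebrain and Tanycytes, which were matched by anatomy to the lateral ventricle and the third ventricle. All deposited cells were kept, no doublet caller was run, and 240 and 245 cells were left of 288 wells each, with 180906553 and 203810153 reads. Counts were summed per sample and scaled to CPM. A gene was examined at 10 CPM or more in 1 sample with reads in 10% of its cells, and called at 4-fold with the 3 blocks of 96 cell numbers apart. Exact Poisson and Clopper-Pearson intervals are at 95%, and a sample with 0 reads was set to a floor of 3 reads. No test was run, since each region was 1 sample. Named genes were the called ones at 50 CPM or more, up to 15 by fold in each direction (13 qualified for the third ventricle), and from each of 42 gene lists up to 8 called members and up to 4 others by level. Gene models with clone names were counted but not described, and a few named genes are not reported here. The members and lists were chosen with earlier results of these data known. Of the gene names, 16029 matched GENCODE vM21 and 318 did not. Promoters came from RefSeq, GRCm38.p6. Alternatives were TMM factors (edgeR 4.0.16), other totals, filters and folds, blocks or cells left out, and thinned cells. The calling rule was tried on simulated block sums drawn from the lateral-ventricle means, without spread between cells. That trial checks the working of the rule only and cannot bear on the calls in these data. Python 3.11.15, numpy 2.4.6, pandas 2.3.3, scipy 1.17.1, matplotlib 3.10.9 and R 4.3.3 were used.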

Additional observations from a re-analysis of the deposited data

How the results depend on the processing

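The reported counts were 63 genes for the lateral and 80 for the third ventricle. With a minimum of 50 CPM they were 20 and 13, with no filter beyond 1 read 216 and 309, with reads in 25% of cells 40 and 29, at 2-fold 197 and 348, and at 8-fold 31 and 29. Leaving out 1 block gave 71 to 78 genes for the lateral and 88 to 126 for the third ventricle, with 126 without the third lateral-ventricle block. Without lateral-ventricle cells at 100 CPM of Acta2 or more the third-ventricle count was 214, and without such cells of both samples 185. Cells with Xist and no Y-linked reads gave 123 and 140, and cells with Y-linked and no Xist reads 98 and 145. The cause of these shifts was not tested. Under TMM factors the counts were 65 and 78, and with the authors' deposited normalized values 63 and 88. Only the 54 called genes named from the ranking and the lists were tried gene by gene, under 20 alternatives. All 54 kept their direction, and 33 stayed at least 4-fold apart under all of them. They were called in these same cells, so a kept direction was likely from the start. Genes that were not called, and called genes outside the ranking and lists, were not tried in this way. Beside genes given above, the smallest log2 ratio was 1.35 for Lamb3 and -1.16 for Acvrl1, each within cells with Xist reads, 1.61 for Meis2 and 1.11 for Cdh19 within cells with Y-linked reads, and 1.28 for Ifitm1 in thinned cells. The splits by Xist and Y-linked reads, by Otx2 or neuron marker reads and by Acta2 in both samples were chosen after seeing the data. No paired analysis was possible because each region was 1 sample and the labels give no replicate numbers. Depth limits genes read in few cells: Spon1 was read in 10.6% of third-ventricle cells, and in 8.57% after thinning.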

Other observations

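Called genes that no list held were looked at after their values were seen. On the lateral side, Rbp2, a cellular retinol carrier best known from the intestine, stood at 121 CPM in the lateral and 24.4 CPM in the third ventricle, Lrp8, a receptor for reelin and apolipoprotein E, at 118 against 25.7 CPM, and Tfr2, a transferrin receptor, at 64.4 against 13.3 CPM. Il17b, a cytokine of the interleukin 17 family, stood at 48.5 against 2.64 CPM, and Ogn, a small leucine-rich proteoglycan, at 22.1 against 0.265 CPM. Pou3f3, a POU factor of the developing forebrain, stood at 14.2 against 1.66 CPM, and Pantr1, a noncoding RNA whose gene lies 926 bases from it, at 14.8 against 0.761 CPM.

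On the other side, Cd36, a fatty acid transporter, stood at 0.0663 against 23.7 CPM. Ndnf, a secreted neurotrophic protein, had 0 reads in lateral-ventricle cells and stood at 14.8 CPM in third-ventricle cells, at least 891-fold higher when the lateral-ventricle sample is set to 3 reads. Gfra2, the neurturin co-receptor, stood at 2.34 against 43.9 CPM. Prox1, a homeobox factor of neural and lymphatic development, stood at 3.79 against 19.0 CPM, and Ccnd1, the G1 cyclin D1, at 3.23 against 16.7 CPM. The cause of these differences was not tested.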
